A study of Mus musculus with 3 samples.

Results

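The protein-coding genes of mouse aortic endothelial cells given glucose oxidase and the scavenger Et2HOBA were compared with those of untreated control cells. The members are all rows of the deposited count table with the biotype protein-coding, 13285 of 18287 listed genes (72.6%), taken whatever their level or change. The cells were a purchased primary culture from mouse aorta. The control cells were untreated. The other cells received glucose oxidase at 5 mU/mL for 30 min and Et2HOBA (ethyl-2-hydroxybenzylamine) at 0.2 mM for 24 h. Glucose oxidase oxidizes glucose in the medium and releases hydrogen peroxide. The labels do not give the order of the exposures. No library given Et2HOBA alone was analysed here, so what each agent contributed cannot be told apart. A library given glucose oxidase alone shares the same control. It enters the scaling of the counts, and its values are otherwise only set beside the others.

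Each group was 1 library of polyadenylated RNA, so the differences below lack replicates and were not tested. Protein-coding genes held 35378944 of the 35969965 reads in control (98.4%) and 39465101 of the 40212212 reads with both agents (98.1%). In control 69 of them were at 0 reads, and with both agents 109. Levels are normalized read counts, the log2 ratio of a gene is that of normalized count plus 10, and a gene is called higher or lower when this ratio reaches 1 in either direction. Fold differences leave out the added 10 and carry an exact Clopper-Pearson 95% interval, which covers counting error only and compares libraries, not conditions. In bulk RNA, fewer cells of a type and less RNA per cell cannot be told apart.

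Hydrogen peroxide and reactive lipid products reach cells through several known programmes. Oxidants free NRF2, which acts at antioxidant response elements, while shortage of amino acids or oxidant stress can activate the integrated stress response, in which phosphorylation of eIF2alpha favours translation of ATF4. Et2HOBA was used as a scavenger of isolevuglandins, reactive products of lipid oxidation. Aortic endothelium is also known for flow-responsive, arterial and barrier genes and for a basal interferon programme, and its cells divide in culture.

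Of the protein-coding genes, 2210 passed the limit (16.6%): 974 were higher with both agents (7.33%) and 1236 were lower (9.30%). The median log2 ratio of all 13285 was 0.0011, and the central 90% lay between -1.47 and 1.26. At the edge of the limit there were 178 genes from 0.9 to 1 and 126 from 1 to 1.1 on the high side, and 235 and 164 in the same bands on the low side. Large rises outnumbered large falls only at the far end: 29 genes were higher and 8 lower by 4 log2 units or more, whereas 268 were higher and 374 lower by 2 or more. Of the 2210 genes, 1498 share no 50-base stretch of their longest transcript with another gene, as do 8547 of all 13285. Where a gene given below with its own value shares over 20% of such stretches, this is stated and its count is uncertain. Genes are also counted by list below, and the shares of 7.33% higher and 9.30% lower are the background for each list. The lists were chosen with earlier results of these data known and some share members, so they are not separate evidence.

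**Figure D1:**
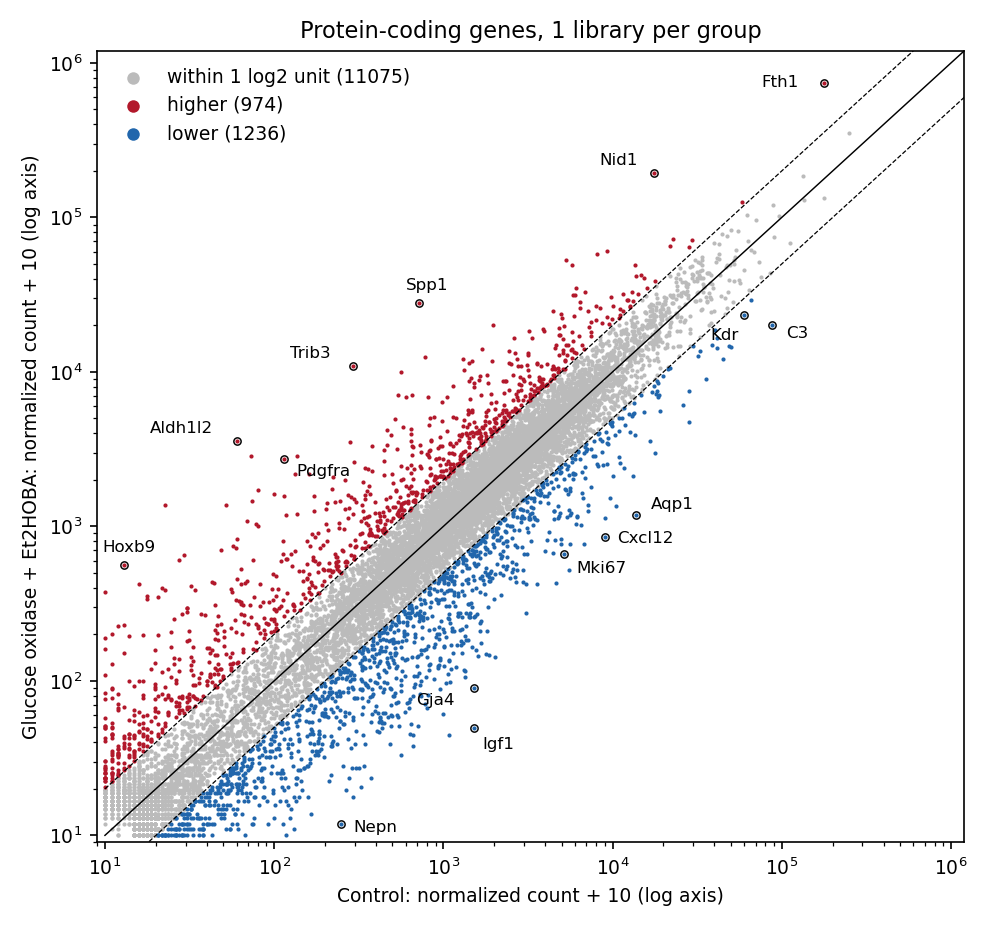
Normalized count plus 10 of each of the 13285 protein-coding genes in the control library (x, log axis) and in the library given glucose oxidase plus Et2HOBA (y, log axis), with 1 point per gene, a solid line of equality and dashed lines at 1 log2 unit. The 974 higher genes lie above the upper dashed line and the 1236 lower genes below the lower one, and Fth1 has the highest count among the higher ones.

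Amino acid supply and its stress response held several of the largest rises. Of 14 factors of the integrated stress response 10 were higher and 0 lower, with a median log2 ratio of 3.04, against 7.33% higher and 9.30% lower over all protein-coding genes. Trib3, a pseudokinase induced by ATF4, had 291 reads in control, 7016 after glucose oxidase alone and 11263 with both agents, 38.5-fold the control level (34.2 to 43.4). Atf3, a stress-induced bZIP repressor, had 107, 667 and 1630 reads in the same order, and Nupr1, a stress-induced chromatin protein, had 543, 4343 and 7315. In these genes the library given both agents was the highest of the 3. The translational brake Eif4ebp1 had 1744, 8340 and 14695 reads, and Ppp1r15a, which directs dephosphorylation of eIF2alpha, had 1449, 6356 and 11899. The members within the limit were Sesn2 at 0.89, Cebpg at 0.76, Vldlr at 0.15 and Ddit4, an inhibitor of mTORC1, at -0.89.

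The list of enzymes that make serine and glycine and carry folate-bound carbon was mostly higher as well. It also holds enzymes of proline synthesis and transsulfuration, such as Pycr1, Cth and Cbs. Of its 17 enzymes 12 were higher and 2 lower, with a median of 1.97. Aldh1l2 (ENSMUSG00000020256.14, chromosome 10, 83487450 to 83534140, minus strand), the mitochondrial formyltetrahydrofolate dehydrogenase, had 52 reads in control, 2244 after glucose oxidase alone and 3696 with both agents, 70.6-fold the control level (53.7 to 94.7). It had the highest ratio among genes at or above the median count. The mitochondrial folate enzyme Mthfd2 had 571, 6187 and 10427 reads, 18.1-fold the control level (16.7 to 19.8), and Pycr1, which makes proline, had 93, 1219 and 1681. The cytosolic counterparts differed: Mthfd1 had a ratio of -0.23 and Aldh1l1 had 9, 4 and 3 reads. The related mitochondrial Mthfd2l lay at -0.36. Shmt1, the cytosolic serine hydroxymethyltransferase, was lower (464, 251 and 221 reads) while mitochondrial Shmt2 was higher (2849, 8570 and 11275 reads). The transsulfuration enzymes also split. Cth, which makes cysteine from cystathionine, had 40, 470 and 718 reads, 17.8-fold the control level (13.0 to 25.2). Cbs, which makes cystathionine, had 328, 17 and 11 reads, 30.0-fold lower than control (16.6 to 60.7).

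Of 12 measured amino acid transporters 7 were higher and 0 lower, with a median of 2.01. Slc7a5, the light chain of the large neutral amino acid exchanger, had 1165, 5350 and 8366 reads, and its heavy chain Slc3a2 had 7093, 25278 and 34241. The glycine carrier Slc6a9 had 453, 2165 and 3231 reads. Slc38a2, a glutamine and alanine carrier, stayed at 0.70. Of 19 measured cytosolic aminoacyl-tRNA synthetases, which charge tRNAs, 12 were higher and 0 lower, with a median of 1.46. Cars led at 2.61 (6.15-fold, 5.82 to 6.51), followed by Eprs at 2.40 and Gars at 2.22. The charging enzymes for histidine, valine and glutamine lay near control, Hars at 0.21, Vars at 0.09 and Qars at 0.07. The list thus spanned 0.07 to 2.61.

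The promoters of 4 of these genes are shown because each holds the composite C/EBP-ATF element bound by ATF4 and its partners, searched as TGATGNAAN on both strands. Stretches are from RefSeq windows of GRCm38.p6, in the sense of the gene, with the match in capitals (a reverse-strand match reads as its complement).
Chac1, chr2:119351008-119351096, plus strand: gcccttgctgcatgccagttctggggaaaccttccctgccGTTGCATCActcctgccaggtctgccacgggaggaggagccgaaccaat
Trib3, chr2:152344011-152344087, minus strand: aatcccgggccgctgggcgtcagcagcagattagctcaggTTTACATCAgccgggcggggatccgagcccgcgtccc
Pycr1, chr11:120643803-120643891, minus strand: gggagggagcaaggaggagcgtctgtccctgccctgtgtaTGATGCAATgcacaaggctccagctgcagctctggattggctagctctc
Asns, chr6:7693184-7693272, minus strand: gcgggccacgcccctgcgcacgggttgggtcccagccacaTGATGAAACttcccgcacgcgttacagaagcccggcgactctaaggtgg
The element was found in 4 of 13 promoters of stress response factors and 5 of 12 of tRNA synthetases, against 3.96% of all 32817 windows. The list of serine, glycine and folate enzymes, with its proline and transsulfuration members, held it in 2 of 15. A match is a description of letters and not a bound site.

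Protein folding genes were listed by compartment. Of 20 endoplasmic reticulum chaperones and folding enzymes only Ero1l and Ero1lb were higher and Sdf2l1 was lower, with a median of 0.10. Ero1l, the oxidase that regenerates disulfide-forming capacity, had 1347, 6176 and 12535 reads in control, glucose oxidase alone and both agents. The lumenal lectin Calr went the other way, with 29710, 15502 and 15207 reads and a ratio of -0.97, and the central chaperone Hspa5 had a ratio of 0.69. Of 15 measured cytosolic heat shock genes 6 were higher and 0 lower, with a median of 0.59. The small heat shock protein Cryab had 1516, 3071 and 5693 reads. The inducible HSP70 gene Hspa1a had 66, 483 and 1505 reads and its twin Hspa1b 523, 1746 and 5152. These genes share 60.3% and 62.3% of their stretches with another gene, so the split between them is uncertain. The constitutive Hspa8 (51.4% shared) had a ratio of -0.64 and the co-chaperone Bag3 one of -0.53.

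Antioxidant and iron genes were higher, some of them at high counts. Of 20 NRF2 targets 13 were higher and 0 lower, with a median of 1.47. The glutathione-making subunit Gclm had 2727, 9842 and 13701 reads in control, glucose oxidase alone and both agents, the sulfiredoxin Srxn1 had 3982, 13051 and 19771, and the efflux pump Abcc4 had 1552, 5552 and 8299. Of the genes of the pentose phosphate pathway, which supplies NADPH, Taldo1 was higher at 2.00, while Pgd at 0.90, Tkt at 0.50 and G6pdx at 0.13 stayed within the limit. Thioredoxin itself, Txn1, lay at -0.13, while its reductase Txnrd1 was higher at 1.63. Prdx6, a peroxiredoxin that reduces phospholipid hydroperoxides, had 9585, 39555 and 63278 reads, 6.56-fold the control level (6.42 to 6.70). It had no shared stretch and the sixth largest gain in normalized count of all protein-coding genes.

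Of 18 measured enzymes that clear reactive carbonyls, the class of compound that Et2HOBA is meant to trap, 3 were higher and 0 lower, with a median of 0.14. Adh7, an alcohol dehydrogenase, had 198, 1410 and 1346 reads, so that both treated libraries were alike. Akr1b8, an aldo-keto reductase, had 1520, 3248 and 4258 reads, and Aldh3a1 had 57, 217 and 156. Members with many reads in control stayed within the limit: Aldh2 was at 0.03, Akr1a1 at 0.27 and the glyoxalase Glo1 at -0.29.

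Of 10 metallothionein and iron genes 8 were higher and 0 lower, with a median of 1.88. Fth1 (ENSMUSG00000024661.7, chromosome 19, 9980598 to 9985098, plus strand), the ferritin heavy chain, had 183445 reads in control, 542914 after glucose oxidase alone and 776210 with both agents. It took 0.519% of protein-coding reads in control and 1.97% with both agents, the largest gain of any gene. The ferritin light chain Ftl1 was 2.15-fold higher (2.13 to 2.17) and shares 78.9% of its stretches. The iron exporter Slc40a1 had 612, 4411 and 7103 reads, and the importer Tfrc was higher as well, at 1.37. The metal-binding Mt2 had 11, 269 and 350 reads and its neighbour Mt1 663, 2591 and 3435, while the metal-sensing factor Mtf1 had a ratio of 0.27.

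Promoters of 2 NRF2 targets with an antioxidant response element, searched as TGACNNNGC on both strands, are shown with the match in capitals, from the same windows and build.
Abcc4, chr14:118706196-118706284, minus strand: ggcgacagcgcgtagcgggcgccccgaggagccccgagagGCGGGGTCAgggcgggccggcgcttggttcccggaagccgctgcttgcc
Gclm, chr3:122245383-122245471, plus strand: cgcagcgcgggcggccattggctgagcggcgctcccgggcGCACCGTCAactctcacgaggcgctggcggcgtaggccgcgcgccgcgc
The element was found in 6 of 15 NRF2 target promoters, against 12.4% of all windows. Other lists ran from 0 of 16 promoters of glycolysis enzymes to 5 of 14 of BMP and TGF-beta genes, with 6 of 24 of mitosis genes. The antioxidant response element can overlap the AP-1 element, which was found in 4 of the 15 NRF2 target promoters, against 7.81% of all windows.

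Genes of cell division were lower nearly throughout. Of 28 mitosis genes 27 were lower and 0 higher, with a median of -2.80, against 9.30% lower over all protein-coding genes. Plk1, a mitotic kinase, had 1370 reads in control, 281 after glucose oxidase alone and 110 with both agents, 12.5-fold lower than control (10.3 to 15.4). Cyclin A2 (Ccna2) had 1723, 339 and 171 reads, and the kinetochore protein Cenpf had 1606, 297 and 153. Tpx2, a spindle assembly factor, was the member within the limit, at -0.96, and had more reads with both agents (1581) than after glucose oxidase alone (1260). Of 28 DNA replication genes 22 were lower and 0 higher, with a median of -1.56. The licensing factor Cdc6 had 644, 180 and 37 reads, 17.5-fold lower (12.6 to 25.1), while its partner Cdt1 had 788, 889 and 1207 and a ratio of 0.60. The polymerase clamp Pcna (31.8% shared) lay at -0.47 and thymidylate synthase Tyms at -0.72.

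Homologous recombination and Fanconi genes followed the same direction, with 14 of 18 lower and a median of -2.17. The helicase Brip1 had 496, 135 and 43 reads and Rad51ap1 had 438, 138 and 45. The exception was Rad54b (ENSMUSG00000078773.11, chromosome 4, 11558922 to 11615805, plus strand), a DNA translocase of the same pathway, with 131, 1754 and 2965 reads, 22.5-fold higher than control (18.9 to 27.0). It shares no stretch with another gene. Fsbp (46.9% shared), a gene within its coordinates on the same strand, had 10 and 8 reads in control and with both agents, and the antisense transcript Gm11832 had 9 and 148. The related translocase Rad54l was lower, with 243, 78 and 47 reads. Of 18 measured p53 targets 3 were higher and 3 lower, with a median of 0.20. Gadd45a, a growth arrest gene, had 667, 3761 and 7345 reads, the cell cycle inhibitor Cdkn1a lay within the limit at 0.57, and the death receptor Fas was lower, with 2045, 1369 and 755.

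Promoters of 2 mitosis genes are shown because the cell cycle homology region (CHR), searched as TTTGAA on both strands, was found in 18 of 24 promoters of that list, against 17.9% of all windows. The match is in capitals.
Kif11, chr19:37376323-37376408, plus strand: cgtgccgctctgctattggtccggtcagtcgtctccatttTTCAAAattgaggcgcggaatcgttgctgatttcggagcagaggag
Plk1, chr7:122159425-122159484, plus strand: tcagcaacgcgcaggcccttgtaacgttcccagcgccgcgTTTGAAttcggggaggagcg
The CCAAT box was found in 19 of the same 24 promoters, against 37.4% of all windows. It was not particular to that list: other lists ran from 1 of 10 promoters of NF-kappaB genes to 15 of 16 of endoplasmic reticulum chaperones. Clock genes held it in 12 of 14. The E2F element TTTCCCGC was found in 6 of 23 replication promoters, against 1.07% of all windows.

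Interferon genes were lower in most members of both their lists, which were chosen with earlier results of these data known. Of 28 measured interferon-stimulated genes 24 were lower and 0 higher, with a median of -1.77. Among the factors, Irf7 had 1250, 624 and 360 reads in control, glucose oxidase alone and both agents, and Stat2 lay within the limit at -0.67. The RNA sensor Ifih1 had 1056, 471 and 309 reads and Xaf1, a pro-apoptotic effector, had 11267, 4978 and 2923. Bst2, which tethers budding virions, had the most reads of the list in control and a ratio of -0.97. The guanylate-binding proteins and immunity-related GTPases were lower in 15 of 16, with a median of -2.40. Gbp9 had 29025, 10848 and 4950 reads, 5.90-fold lower than control (5.73 to 6.08), and Iigp1 had 672, 278 and 72. Only 1 of the 16 has no shared stretch, so counts of single members are uncertain. The last member, Gbp8, had 111, 102 and 51 reads and a ratio of -0.99.

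Of 20 genes of MHC class I and peptide loading 9 were lower and 1 higher, with a median of -0.82 that was -1.33 over the 6 with no shared stretch. The immunoproteasome subunits were among the lower members: Psmb8 had 292, 109 and 50 reads, Psmb9 had 259, 118 and 55, and Psmb10 had 1179, 673 and 383. Of 26 subunits of the standard proteasome 0 were lower and 1 was higher, Psmd11 at 1.03, with a median of 0.19. The class I light chain B2m lay at -0.57, and the nonclassical H2-M3 was higher, with 146, 211 and 347 reads. Of 16 measured chemokine genes 2 were higher and 4 lower, with a median of -0.48. Cxcl2, which attracts neutrophils, had 589, 1485 and 4543 reads, whereas the tethered chemokine Cx3cl1 was 5.90-fold lower (5.53 to 6.30). Ackr3, a scavenging receptor for Cxcl12, was higher at 1.40 while Cxcl12 itself was 10.6-fold lower (9.87 to 11.4). Of 13 measured NF-kappaB subunits and inhibitors 0 were higher and 1 lower, with a median of -0.0048. That gene, Nfkbie, had 671, 294 and 226 reads. Tnfaip3, an inhibitor in the same pathway, had 698, 684 and 1319 reads and a ratio of 0.90.

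The interferon core AAANNGAAA, searched on both strands, was found in 15 of 21 promoters of interferon-stimulated genes and in 10 of 10 of the guanylate-binding protein and GTPase list, against 10.5% of all windows. A promoter of each list is shown with the matches in capitals. In Gbp3 they overlap.
Gbp3, chr3:142559959-142560053, plus strand: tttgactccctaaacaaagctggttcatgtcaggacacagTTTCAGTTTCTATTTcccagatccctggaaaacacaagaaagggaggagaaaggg
Ifit3b, chr19:34607729-34607851, plus strand: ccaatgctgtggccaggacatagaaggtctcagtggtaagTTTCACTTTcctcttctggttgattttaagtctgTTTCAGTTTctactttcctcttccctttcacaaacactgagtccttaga
Gbp3 had 1378, 500 and 192 reads. Ifit3b had 2708, 1201 and 481 and shares 45.0% of its stretches.

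**Figure D2:**
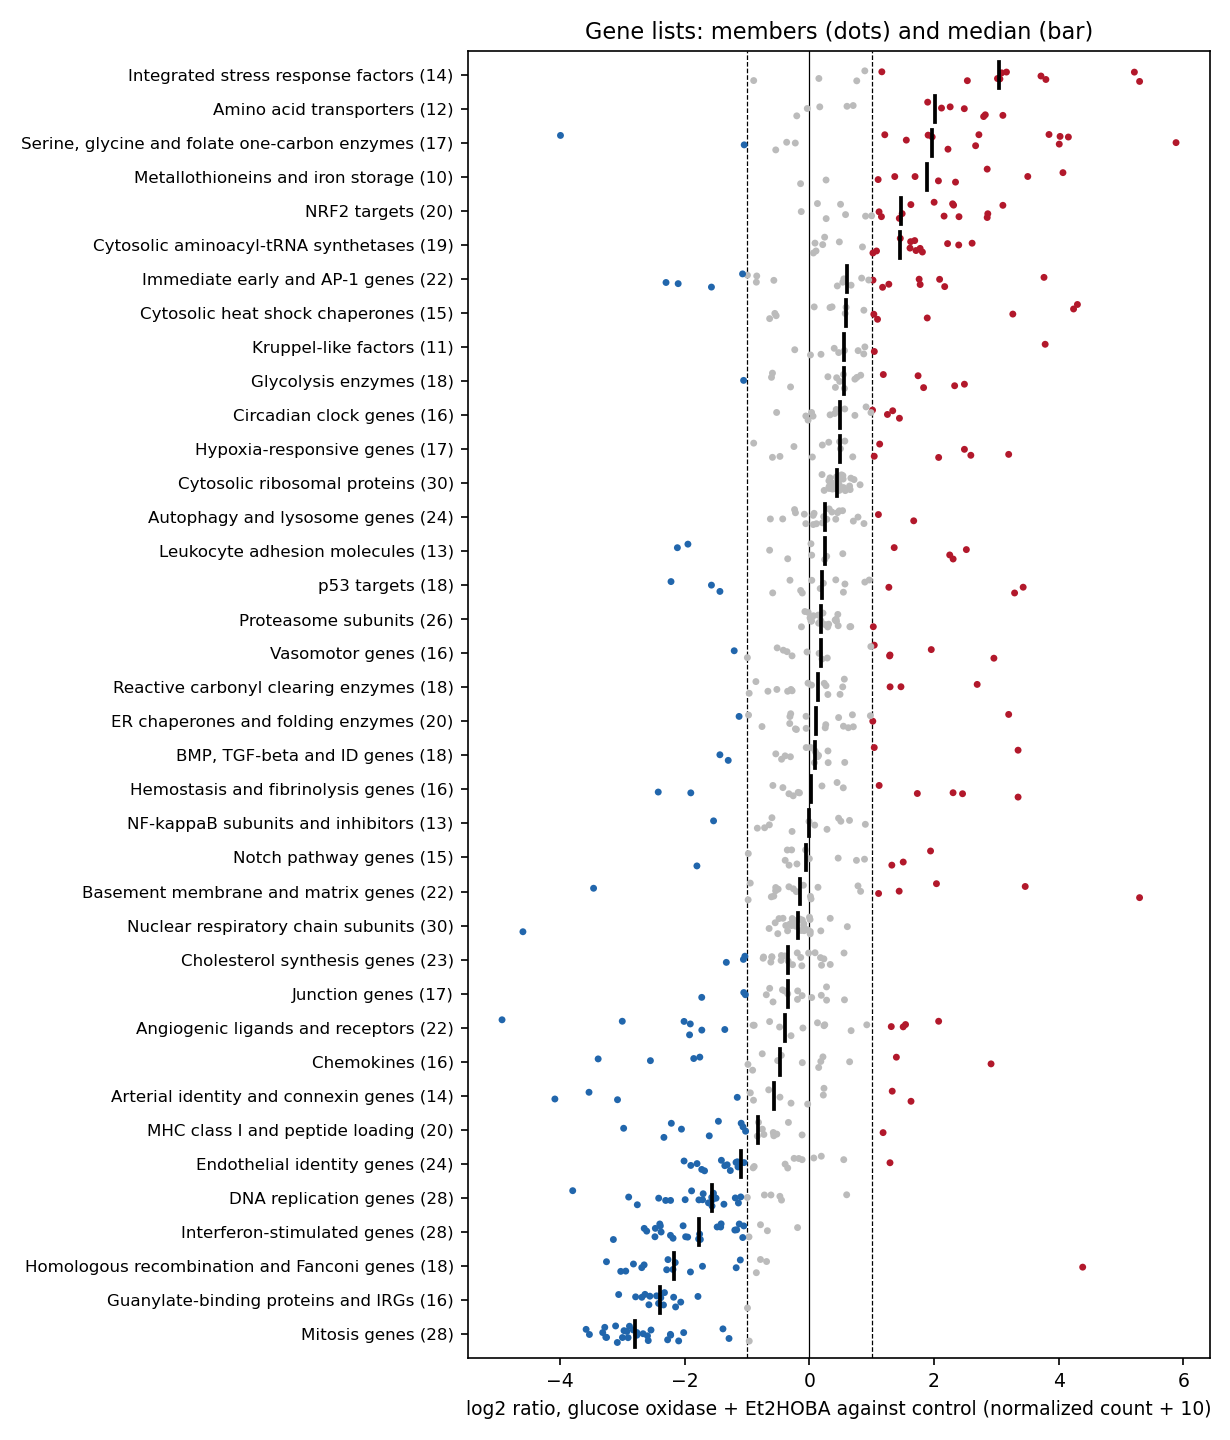
Log2 ratio of glucose oxidase plus Et2HOBA against control (x) for the measured members of 38 gene lists (rows, number measured in brackets), with 1 dot per gene, coloured where it passes 1 log2 unit, and a bar at the median. Lists are ordered by median, from the stress response factors at 3.04 to the mitosis genes at -2.80, and most lists in the middle hold single genes past either limit.

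Transcription factors of the immediate early class went in both directions. Of 22 genes 8 were higher and 4 lower, with a median of 0.61. The Fos-related Fosl1 had 156, 1122 and 2267 reads in control, glucose oxidase alone and both agents, 14.4-fold the control level (12.3 to 17.1), and Fosl2 had 2783, 5339 and 12662. Fosb, in contrast, had 1312, 973 and 260 reads, 5.08-fold lower (4.44 to 5.82). Jun lay at 0.54, Jund at 0.67 and Junb at -0.84. The orphan receptor Nr4a1 had 1462, 1301 and 3578 reads, so only the library given both agents was high. Of 11 measured Krüppel-like factors 2 were higher and 0 lower, with a median of 0.56. Klf5 led, with 52, 460 and 854 reads, 16.3-fold the control level (12.3 to 22.03). The flow-responsive Klf2 and Klf4 lay just inside the limit, at 0.89 and 0.87, and Klf2 had 10015, 10850 and 18707 reads. Of 16 measured clock genes 4 were higher and 0 lower: Ciart, Nr1d1, Bhlhe40 and Nfil3, all repressors of transcription, at ratios from 1.01 to 1.45, and the list median was 0.50. The core activators Arntl at -0.02 and Clock at -0.06 lay near control, and Per2 at -0.52.

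The cells' label was checked against 10 endothelial markers fixed for it, all of which were measured. Their summed normalized count was 307220 in control and 195692 with both agents. None was higher and Tek, Vwf, Kdr and Erg were lower, with a list median of -0.62. Cdh5, the endothelial cadherin, had 55360, 45034 and 63665 reads and a ratio of 0.19, and Emcn a ratio of 0.55. The sums over markers of other cells were led by 1 or 2 genes each. Smooth muscle and pericyte genes (8 of 10 measured, 3 higher) summed to 12057 and 11345, nearly all from Mcam and Smtn. Acta2 had 8 and 13 reads, Tagln 9 and 4, and Myh11 19 and 73. Of fibroblast markers 4 of 10 were measured, 1 higher and 1 lower, and their sum went from 299 to 2763 through Pdgfra. Postn, the member with the most reads in control, was lower, with 172 and 26 reads, while Col1a1 was at 28 and 23 reads and Col3a1 at 2 and 0. Of leukocyte markers 6 of 10 were measured, 2 higher and 1 lower, summing to 8212 and 27127, nearly all from Cd68. Cd14 was also higher, with 55 and 272 reads, and Lyz2 was lower, with 186 and 86. Ptprc was not listed and Csf1r had 6 and 10 reads. Of epithelial and mesothelial markers 5 of 10 were measured, 2 higher and 1 lower, summing to 1073 and 5212 through Plet1 and Msln, while Krt8 (26.9% shared) had 1 and 6 reads. Of lymphatic endothelial markers 2 of 6 were measured, summing to 18313 and 39497: Lyve1 was higher, with 11828, 22417 and 33226 reads, Flt4 lay at 0.13, and Prox1 was not listed. The part of other cell types in the differences was not tested.

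Endothelial identity genes were lower in 13 of 24 and higher in 1, with a median of -1.096. Several factors in the list were lower: Sox18 had 9014, 4854 and 2595 reads, Fli1 had 8374, 4260 and 2621, and Ets1 had 9458, 5005 and 4207. Tal1 lay at 0.07. Cldn5, the tight-junction claudin of endothelium, had 50579, 25153 and 15378 reads, 3.31-fold lower (3.25 to 3.37). Of 17 measured junction genes Cldn5, Jam2 and Jam3 were lower and 0 were higher, with a median of -0.35, while the catenin Ctnna1 and the adaptor Afdn lay at 0.28 and 0.56.

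Of 14 measured arterial and connexin genes 2 were higher and 4 lower, with a median of -0.56 that was -1.05 over the 6 with no shared stretch, and the connexins went in opposite directions. Gja4 had 1562, 287 and 83 reads, 18.9-fold lower (15.2 to 23.9). Gja5 had 3701, 1589 and 432 reads, 8.62-fold lower (7.80 to 9.55), with over 20% of its stretches shared. Gja1 had 1832, 3478 and 5736 reads, 3.11-fold higher (2.95 to 3.28). The water channel Aqp1 was 11.7-fold lower (11.02 to 12.4). In the Notch pathway 3 of 15 measured genes were higher and 1 lower, with a median of -0.06. The ligand Jag1 had 5337, 8265 and 20718 reads, 3.86-fold higher (3.74 to 3.98), and the receptor Notch2 had 633, 1239 and 1830. The endothelial ligand Dll4 had 390, 168 and 194 reads and a ratio of -0.98, and Lfng, a glycosyltransferase that modifies Notch, was lower with 2249, 1181 and 641. Targets of the pathway stayed within the limit, Hes1 at -0.06 and Hey2 at -0.20.

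Ligands and receptors of angiogenesis went in both directions. Of 22 measured genes 4 were higher and 7 lower, with a median of -0.39. The ligands Vegfa (1219, 3413 and 5204 reads), Pgf (3078, 4002 and 9055) and Pdgfa (654, 1129 and 1889) were higher. The receptors Kdr and Tek were lower, and Flt1 lay at -0.90. Both apelin genes were lower, the ligand Apln with 5772, 2661 and 1750 reads and its receptor Aplnr with 128, 11 and 7. Igf1 was 38.0-fold lower than control (27.9 to 53.1). Of 18 measured BMP and TGF-beta genes 2 were higher and 2 lower, with a median of 0.09. Over all protein-coding genes 7.33% were higher and 9.30% lower. The receptor Tgfbr2 had 19060, 10028 and 7089 reads, and Id2 was lower while Id1 and Id3 lay at 0.30 and 0.14.

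Among 13 measured leukocyte adhesion molecules 4 were higher and 2 lower, with a median of 0.25. The hyaluronan receptor Cd44 had 999, 2030 and 5019 reads, 4.99-fold higher (4.66 to 5.35), and Alcam had 336, 1065 and 1989. Of 16 measured hemostasis genes 5 were higher and 2 lower, with a median of 0.02. Serpinb2, a serine protease inhibitor, had 0, 9 and 41 reads, and tissue factor (F3) had 14, 32 and 71. The urokinase receptor Plaur, which promotes lysis at the cell surface, was 5.55-fold higher (5.16 to 5.98). Coagulation factor F8 was lower, with 2557, 809 and 471 reads, and the anticoagulant Thbd lay at -0.16. The AP-1 element TGANTCA was found in 5 of 9 promoters of this list, against 7.81% of all windows. Other lists ran from 0 of 24 promoters of mitosis genes to 7 of 21 of interferon-stimulated genes and 3 of 9 of leukocyte adhesion molecules.

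Of 16 measured vasomotor genes 5 were higher and 1 lower, with a median of 0.18. The inducible prostaglandin synthase Ptgs2 had 1356, 3324 and 10705 reads, 7.84-fold higher (7.41 to 8.31). Nos3, the endothelial nitric oxide synthase, was 2.45-fold higher (2.42 to 2.49), and Ddah1, which degrades an inhibitor of the synthase, had 183, 444 and 745 reads. Gch1, which makes a cofactor of the synthase, lay within the limit at 0.99. The endothelin receptor Ednrb had 9506, 12610 and 23391 reads, while endothelin itself, Edn1, had 57, 37 and 19. Of 22 measured matrix genes 5 were higher and 1 lower, with a median of -0.15. Nid1 (ENSMUSG00000005397.8, chromosome 13, 13437551 to 13512269, plus strand), which links laminin to collagen IV, had 18051, 130867 and 200647 reads, 11.04-fold the control level (10.9 to 11.2). The laminin chains Lamb1 and Lamc1 were higher at 1.44 and 1.11. The collagen IV chain Col4a1 had 87418, 46463 and 45611 reads and a ratio of -0.95, and elastin (Eln) was 11.8-fold lower (9.89 to 14.1).

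Metabolic and housekeeping lists had medians within the limit, from -0.34 to 0.56. Of 18 glycolysis entries 5 were higher and 1 lower, with a median of 0.56 that was 1.75 over the 7 entries with no shared stretch. The glucose carrier Slc2a1 had 2504, 7825 and 14196 reads and hexokinase Hk2 had 832, 1627 and 3012, while lactate dehydrogenase Ldha lay at -0.30. Pfkfb3, which activates phosphofructokinase, was lower with 3948, 2362 and 1908. Aldoa is listed under 2 identifiers, and 1 of them, with 16 and 123 reads, is among the 5 higher entries. Of 17 measured hypoxia-responsive genes 6 were higher and 0 lower, with a median of 0.50. The hydroxylase Egln3 lay at -0.25 and the kinase Pdk1 at -0.59, so the list was mixed. Of 30 nuclear subunits of the respiratory chain 0 were higher and 1 lower, with a median of -0.18. That gene was Cox8b, with 1104, 47 and 36 reads, 30.9-fold lower (22.2 to 44.3), while the widely expressed Cox8a lay at -0.26. The 13 protein-coding genes of the mitochondrial genome had a median of -0.77, 0 higher and 3 lower.

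All 30 ribosomal protein genes had ratios above 0 and within the limit, from 0.20 to 0.81, with a median of 0.45 that was 0.30 with total-count scaling. Only 2 of the 30 share no stretch with another gene. Of 24 measured autophagy and lysosome genes 2 were higher and 0 lower, with a median of 0.26. Sqstm1, the p62 cargo receptor, had 23377, 53136 and 75166 reads, 3.19-fold higher (3.15 to 3.24), and the autophagosome protein Map1lc3b lay at -0.43. Of 23 measured cholesterol synthesis genes 0 were higher and 3 lower, with a median of -0.34. Mvk, the mevalonate kinase, had 1587, 875 and 762 reads.

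The other genes with the largest ratios at or above median abundance belonged to varied families. Spp1, the secreted phosphoprotein osteopontin, was 39.9-fold higher than control (37.1 to 43.0) and had 14489 reads after glucose oxidase alone. Pdgfra (ENSMUSG00000029231.15, chromosome 5, 75152292 to 75198215, plus strand), a receptor more typical of fibroblasts, had 107, 1325 and 2821 reads, 26.2-fold higher (21.6 to 32.1). Bcat1, a cytosolic branched-chain aminotransferase, had 127, 1434 and 2274 reads, and Steap1, a metalloreductase family member, had 281, 2252 and 3632. Each of these was already high after glucose oxidase alone. Serpina3g, a serine protease inhibitor, was the lowest at 14.97-fold under control (12.6 to 17.9), with 2068, 657 and 139 reads. Rgs2, which limits G protein signalling, was 7.74-fold lower (7.32 to 8.19). The endothelial lectin Clec14a had 6977, 2358 and 786 reads, and Mctp2 had 3178, 755 and 277.

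**Figure D3:**
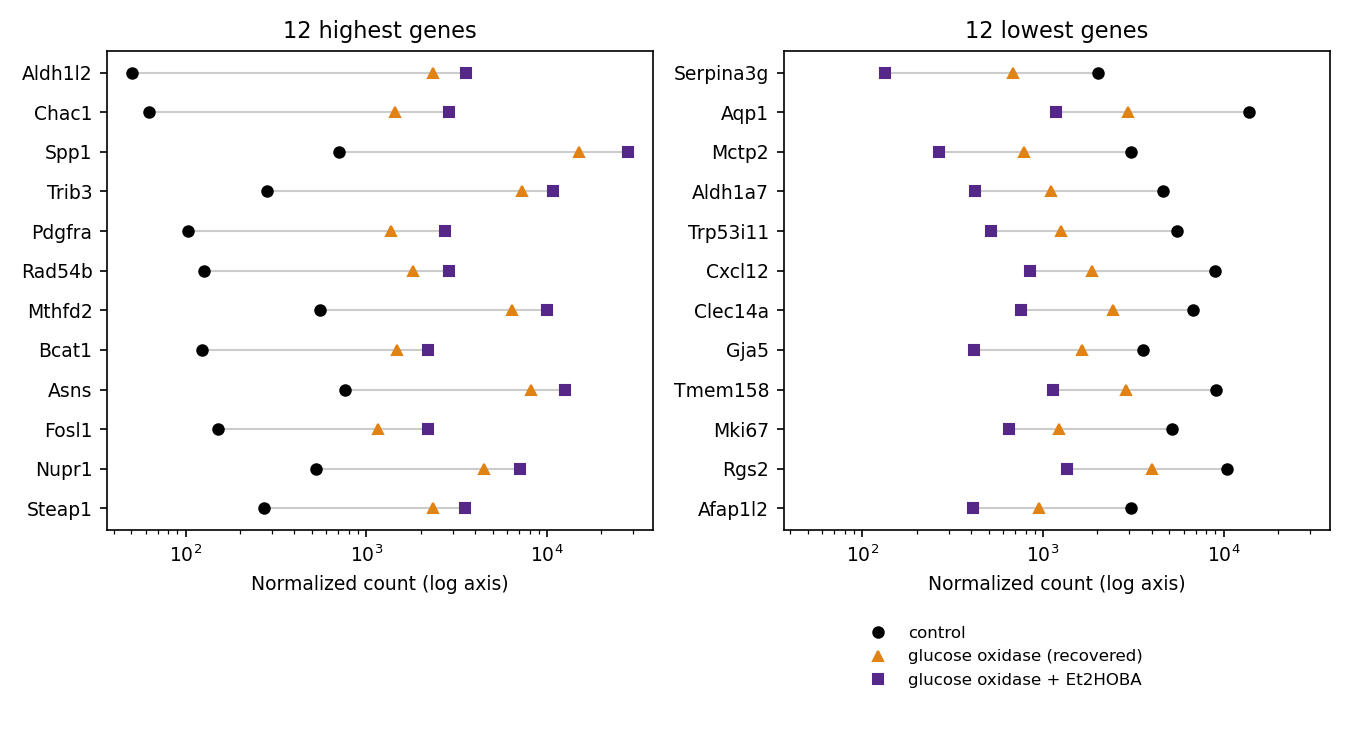
Normalized count (x, log axis) in control (circle), glucose oxidase alone (triangle, recovered counts) and glucose oxidase plus Et2HOBA (square) for the 12 highest and 12 lowest protein-coding genes by log2 ratio among those at or above the median abundance. Aldh1l2 has the widest gap between circle and square among the higher genes and Serpina3g among the lower ones.

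By change in normalized count, the largest gains after Fth1 and Nid1 were in the translation factors Eef1a1 (ratio 0.51, 59.2% shared) and Eef2 (0.47), with Ftl1 and Prdx6. The largest losses were in complement C3, Timp2, mt-Co1, Col4a1, Ms4a6d and Kdr. C3 had 90341, 27315 and 20808 reads, 4.37-fold lower (4.30 to 4.44). Timp2, a metalloproteinase inhibitor, lay at -0.72 and the mitochondrial mt-Co1 (51.1% shared) at -0.41. Per kilobase of longest transcript, the normalized count of Nid1 went from 2872 to 31717 and that of C3 from 17045 to 3901, so their order was opposite in the 2 libraries.

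Some genes were close to absent in 1 library. Car6, a secreted carbonic anhydrase, had 0 reads in control and 378 with both agents, at least 125-fold higher against a floor of 3 reads in the control library. The exact 95% interval, which allows more than 3 reads there, starts at 101-fold. Hoxb9, a homeobox gene, had 3, 224 and 577 reads, 191-fold the control level (65.1 to 929). Tnfsf18 had 3, 66 and 227 reads, and the small heat shock gene Hspb1 (51.6% shared) had 2, 62 and 224. In the other direction, Rnf152 had 111, 20 and 0 reads, at least 37.2-fold lower against the same floor, where the exact interval starts at 29.8-fold. Nepn had 247, 12 and 2 reads, 124-fold lower (34.0 to 1032), and the calcium pump Atp2b2 had 124, 9 and 1.

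Genes past the limit lay beside others of the same direction more often than the share of such genes. Neighbours here are the next listed protein-coding genes along the chromosome, and any unlisted gene between them was passed over. The next listed gene was also higher for 16.3% of 970 higher genes, against 7.34% of all next genes. It was also lower for 16.8% of 1236 lower genes, against 9.30%. There were 10 runs of at least 4 neighbours that were all higher and 11 that were all lower. Neighbours are often paralogs, so shared reads can add to runs. The longest ran over 9 listed genes on chromosome 3 (90654017 to 92419396), with ratios from 1.17 to 4.24. It went from S100a7a through the calprotectin genes S100a8 (565, 1128 and 1603 reads) and S100a9 (10, 47 and 81) into the Sprr2 genes of the cornified envelope. No listed protein-coding gene starts between S100a9, which ends at 90695721, and Sprr2b, which starts at 92316620. A run of 8 genes on chromosome 13 (12565874 to 13999103) held Nid1 and Gpr137b, which had 6038, 20780 and 32671 reads and shares 39.6% of its stretches. A run of 5 genes on chromosome 10 held E030030I06Rik, Raet1e, H60b, Raet1d and Tbpl1, with ratios from 1.06 to 1.35. Of these, Raet1e and Raet1d share 44.4% and 56.4% of their stretches. Another run of 5 held Klra5, Klra4, Klra7, Klra1 and Klra2 on chromosome 6, with ratios from 1.06 to 2.25. The epidermal growth factor family ligands Epgn, Ereg, Areg and Btc formed a run on chromosome 5 (91027464 to 91402994). Areg had 21, 82 and 179 reads and Btc had 120, 477 and 683. The metalloproteinases Mmp13, Mmp12, Mmp3 and Mmp10 formed another on chromosome 9 (7272514 to 7510240), with Mmp13 at 18, 334 and 620 reads. The alpha-class glutathione transferases Gsta4, Gsta1, Gm3776 and Gsta2 were neighbours on the same chromosome. The other 3 share from 64.2% to 92.5% of their stretches, whereas Gsta4 shares none and had 466, 3084 and 3480 reads.

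Several of the lower runs were immune gene clusters. They included the guanylate-binding proteins of chromosome 3 (Gbp5 to Gbp2, ratios from -2.79 to -1.79) and of chromosome 5 (Gbp9 to Gbp6, from -2.69 to -2.45), the Ifit genes of chromosome 19 and the Gimap GTPases of chromosome 6. Gimap6 had 4433, 2183 and 2016 reads. A run of 5 genes on chromosome 2 (92915098 to 93463140) is of another kind and held Trp53i11 (5676, 1211 and 535 reads), the tetraspanins Tspan18 (7371, 1935 and 1305) and Cd82, Prdm11 and Syt13. Runs of 4 are tied in length, and the text gives a part of them.

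**Figure D4:**
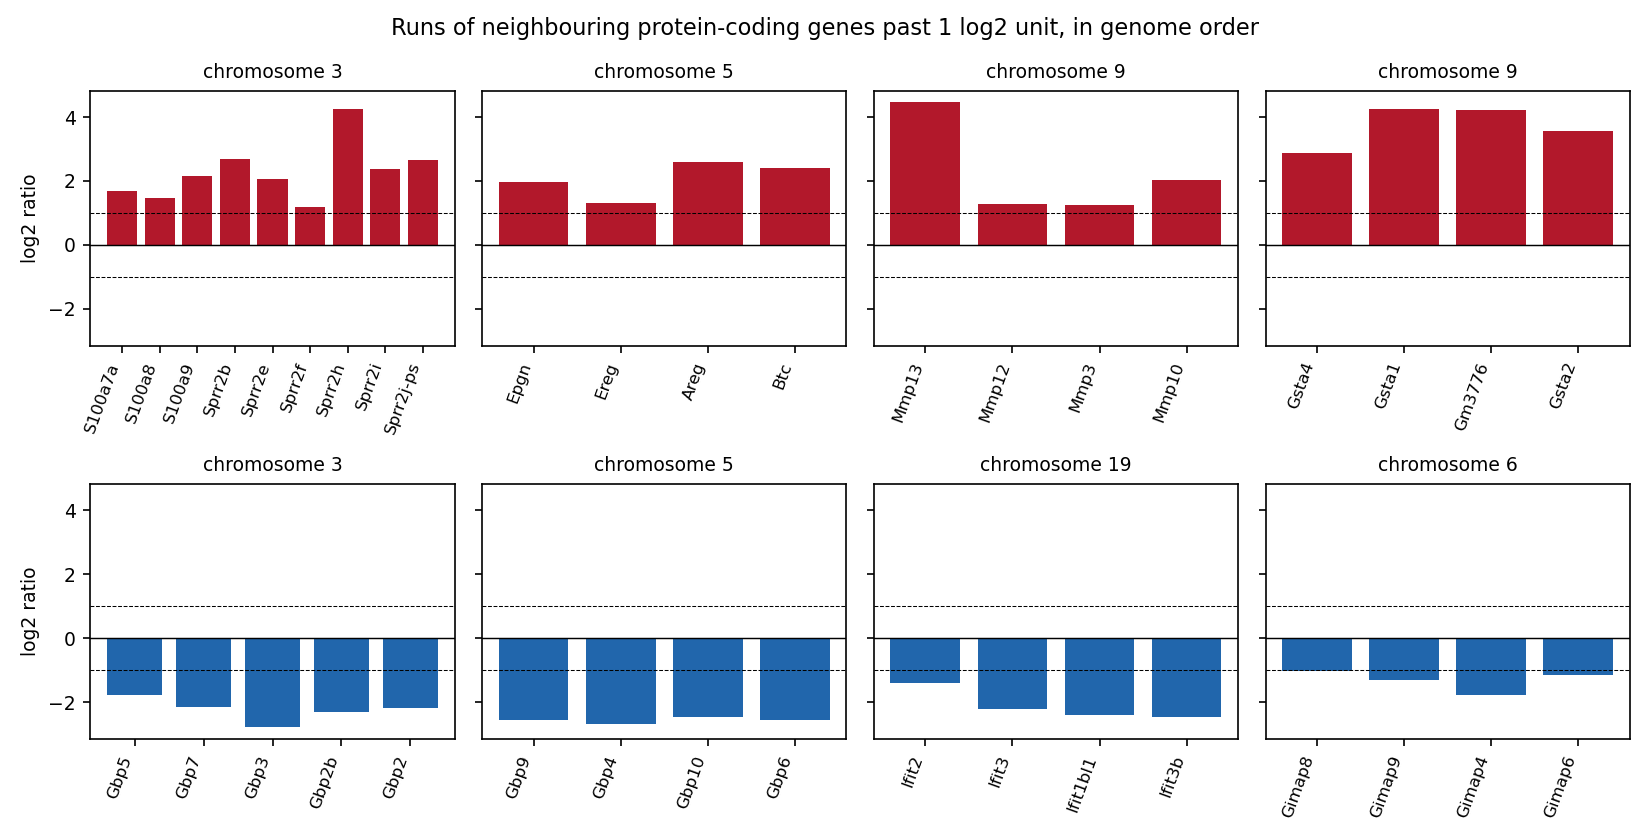
Log2 ratio (y) of the genes in 8 runs of neighbouring listed protein-coding genes past 1 log2 unit, in genome order (x). The 4 higher runs are above and the 4 lower below, with dashed lines at the limit. Ratios within the run of S100a and Sprr2 genes spread from 1.17 to 4.24, while the Gbp genes of chromosome 5 lie within -2.69 to -2.45.

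Promoter letters differed between the directions. Of 748 higher genes with a window, 4.95% held the C/EBP-ATF element, against 2.38% of 967 lower genes and 2.01% of 8760 genes within the limit. The AP-1 element was in 9.49%, 6.31% and 4.53% of the same groups. The CHR was in 18.5% of the lower genes, 9.89% of the higher and 11.5% of those within the limit, and the CCAAT box in 44.4%, 33.6% and 38.8%. The interferon core was in 12.2% of the lower genes, 8.29% of the higher and 7.36% within. The antioxidant response element separated the groups little, at 15.1%, 12.7% and 14.6%. Shares over all 32817 windows, which include genes not measured here, were 3.96% for the C/EBP-ATF element, 7.81% for AP-1 and 17.9% for the CHR, so the table as a whole differs from the measured genes.

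**Figure D5:**
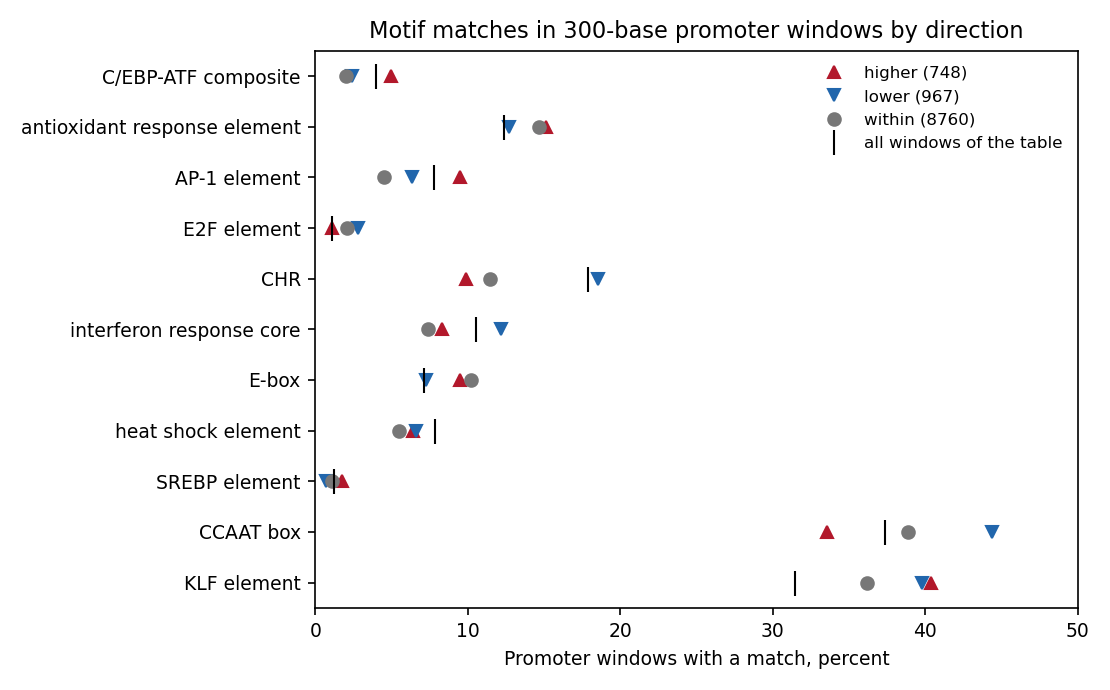
Percent of promoter windows (x) that hold each of 11 motifs (rows) on either strand, for genes higher (up triangle), lower (down triangle) or within 1 log2 unit (circle), with a tick for all windows of the table. The lower genes lie farthest right for the CHR at 18.5% and the CCAAT box at 44.4%, and the higher genes for the AP-1 element at 9.49%.

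Structure and level were compared last. Higher and lower genes had median spans of 26.1 and 22.7 kb, against 23.2 kb over all, and similar GC content of their longest transcripts, at 50.5% and 50.2%, against 49.8% over all. In control the median normalized count was 485 for lower genes, 318 for higher genes and 1121 within the limit. Averaged over both libraries it was 311, 738 and 1160. The order of lower and higher genes thus reversed, and the change itself can set it in either measure.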

How the data were processed

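Stranded, polyadenylated RNA libraries of mouse aortic endothelial cells were compared, 1 per group, so biological and technical spread are unknown. Reads were aligned with STAR and counted with featureCounts against mm10, per the submitters' processing notes; versions, annotation and strand setting are not given in the sources used here, and reads of a gene and its antisense partner may be mixed. The deposited table gives raw read counts of control and of glucose oxidase plus Et2HOBA, per the file headers, together with log-normalized values and a log2 difference between them. For glucose oxidase alone the authors deposited a log2 difference against control. Its counts were recovered by inverting that scale: 100% of 18258 genes came within 0.01 of a whole number, against 3.30% with every control count raised by 1 read, and 29 genes (23 protein-coding) had no recovered count. The values sum to 34869768 reads.

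Normalized counts used size factors by median of ratios over the 3 libraries (1.03, 0.965 and 1.04), and a pseudocount of 10 was added before log2. No count model was fitted, since no spread can be estimated. Of the gene IDs, 17878 had the same version and position in GENCODE M21 (GRCm38). Shared stretches of 50 bases came from its transcripts, and promoter windows from RefSeq, GRCm38.p6, where 10475 of 13281 symbols matched. Ratio, interval, shared-stretch and motif code was tested on simulated data.

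Genes were named by rule: the 12 highest and 12 lowest ratios at or above the median abundance of 1019; list members past the limit, up to 4 a direction, and abundant members within it; the 6 largest gains and losses; 5 genes a direction with at most 3 reads in 1 library; and runs of 4 neighbours. The text gives a part, and some further list members were chosen after their values were seen. Members, lists, motifs, limit and rules were chosen with earlier results of these data known. Alternatives were the pseudocount, total-count, TMM (edgeR 4.0.16) and 2-library scaling, the deposited scale, a filter on low counts, the limit and shared stretches. Python 3.11.15, scipy 1.17.1, pandas 2.3.3 and R 4.3.3 were used. Some list members are not reported here.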

Additional observations from a re-analysis of the deposited data

Results flagged for a closer look

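Long noncoding RNA genes lie outside the protein-coding comparison but in the same table. Of 1872 listed, 115 (6.14%) were higher and 134 (7.16%) lower by 1 log2 unit or more with glucose oxidase plus Et2HOBA than in control. Both shares were below those of the protein-coding genes, 7.33% and 9.30%. The shares were not matched for read count, and the pseudocount shrinks the ratios of genes with few reads. Whether long noncoding RNA genes changed less than protein-coding genes of the same level was therefore not tested. The long noncoding RNA genes are given here because the comparison did not use them. Gas5, a host gene of small nucleolar RNAs, had 2122 reads in control, 4676 after glucose oxidase alone and 5500 with both agents, and the imprinted Peg13 had 13581, 5497 and 3004.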

How the results depend on the processing

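No paired analysis was possible because each group is 1 library, and for the same reason no library could be left out. The counts of 974 higher and 1236 lower genes depended most on the limit: at 0.5 there were 2543 higher and 2851 lower, and at 2 there were 268 and 374. The other settings stayed within 1.5 times. A pseudocount of 1 gave 1248 and 1740, total-count scaling 806 and 1539, and TMM 974 and 1237. Factors of the 2 libraries only gave 971 and 1270, and the deposited scale 740 and 888. The filter on low counts gave 946 and 1202. Genes with no shared stretch gave 672 and 826, out of 8547 such genes rather than all 13285. Total-count scaling put the median protein-coding gene at -0.14 and the higher share of genes past the limit at 34.4%, against 44.1%. It brought Ftl1 within the limit (0.95), took Col4a1 past it (-1.099) and turned the list medians of endoplasmic reticulum chaperones (-0.05), carbonyl clearing enzymes (-0.01), BMP and TGF-beta genes (-0.06) and hemostasis genes (-0.13) below 0. Without shared stretches the chaperone and hemostasis medians were -0.05 and -0.16. Over genes with no shared stretch the medians of MHC class I genes (-1.33), arterial genes (-1.05) and glycolysis entries (1.75) passed the limit. These medians cover only 6 of 20, 6 of 14 and 7 of 18 members. No list median past the limit changed sign under these settings. Depth limits genes of a few reads, such as Acta2.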
